A study of Mus musculus with 12 samples.

Results

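The expression of 10 genes that restrain the cell cycle or belong to the p53 pathway was followed in 2 mouse testis cell lines in which the muscarinic acetylcholine receptor M5 was targeted by RNA interference. The genes were chosen by name, with earlier results of these data known, and all 10 were found among the 17995 genes of the expression table. They were the cyclin kinase inhibitors Cdkn1a, Cdkn1b, Cdkn2a, Cdkn2b and Cdkn2c, then Trp53 and its inhibitor Mdm2, and the p53 target genes Ccng1, Trp53inp1 and Bbc3. C18-4 is a mouse spermatogonial stem cell line grown in DMEM/F12, and TM4 is a mouse Sertoli cell line grown in DMEM. Cells of each line were transfected, and kept as stable transfectants, with either a control short hairpin RNA (shNC) or a mixture of 3 short hairpin RNAs against M5 (shM5), both built in a lentiviral vector. The labels gave IRC as the strain of every sample, and they did not say whether the replicates came from separate cultures. With 3 libraries in each of the 4 groups (C18-4 shNC, C18-4 shM5, TM4 shNC and TM4 shM5), 12 mRNA libraries were compared, and their p-values measure only the spread between these libraries, which may be technical. Levels were given as RPKM, the reads of a gene scaled to its length and to the mapped reads of the library, which can be compared between genes per unit of length. Read totals were not given, and the RPKM of a library summed to between 506413 and 540231.

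Cyclin kinase inhibitors stop the cell cycle by binding cyclin-dependent kinases. The CIP/KIP proteins p21 (Cdkn1a) and p27 (Cdkn1b) act on several cyclin kinase complexes, whereas the INK4 proteins p15 (Cdkn2b), p16 (Cdkn2a) and p18 (Cdkn2c) bind CDK4 and CDK6 and keep the retinoblastoma protein active. Cdkn2a also encodes ARF from another first exon, and ARF holds back MDM2, the ubiquitin ligase that destroys p53. p53 in turn activates Cdkn1a, Mdm2, Ccng1, Trp53inp1 and Bbc3, so Mdm2 closes a negative feedback loop. In the testis, p27 limits the proliferation of Sertoli cells, and p53 acts in germ cell quality control. The line C18-4 was made by immortalisation with the large T antigen, a viral protein known to bind p53 and the retinoblastoma protein, and no read of it is counted in the table.

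Promoter windows of RefSeq (build GRCm38.p6, 250 bases before to 50 after each annotated start, 300 in all) were held for 9 of the 10 genes, with 14 windows together. Each was searched for the p53 half-site consensus, a palindrome that reads alike on both strands. A half-site was found in 4 of the 14 windows, and in 8.36% of all 32851 windows. They lay before a start of Cdkn1a, Mdm2, Ccng1 and Trp53, and are shown here because 3 of these genes are classical p53 targets whose RNA is followed below. Capitals mark the half-sites, and each sequence reads in the direction of its gene.
Cdkn1a, chr17:29090886-29090957, plus strand: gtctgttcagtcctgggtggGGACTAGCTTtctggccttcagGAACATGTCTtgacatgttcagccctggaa
Mdm2, chr10:117710915-117710964, minus strand: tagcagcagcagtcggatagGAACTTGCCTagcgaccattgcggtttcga
Ccng1, chr11:40755442-40755491, minus strand: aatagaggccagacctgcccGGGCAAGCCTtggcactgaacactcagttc
Trp53, chr11:69580264-69580313, plus strand: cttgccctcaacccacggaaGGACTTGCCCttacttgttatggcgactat
The half-sites of Cdkn1a began 73 and 51 bases before the start, that of Mdm2 186 bases, that of Ccng1 185 bases and that of Trp53 75 bases before it. Only in the Cdkn1a window were 2 half-sites at most 13 bases apart, an arrangement found in 0.0731% of all windows. This was the upstream of 2 annotated Cdkn1a starts, and the window of the other start, 2790 bases further along the gene, held no half-site. The windows of Cdkn1b, Cdkn2a, Cdkn2b, Cdkn2c and Bbc3 did not hold these letters. The motif TGATGNAA, bound by ATF4, was searched on both strands and was found in none of the 14 windows and in 3.97% of all windows. Cdkn2a also has 2 annotated starts, at positions 89294619 and 89282192 of chromosome 4 on the minus strand and 12427 bases apart, which give the ARF and the p16 transcripts. The table holds 1 value per gene, so the transcripts of Cdkn1a and of Cdkn2a cannot be told apart here.

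Chrm5, the gene of M5, was listed at 0 RPKM in 10 of the 12 libraries and at 0.01 in the others, C18-4 shNC replicate 2 and TM4 shNC replicate 1. Its RNA therefore gives no check of the knockdown. The study itself reported less M5 protein with shM5 in both lines, seen by immunofluorescence staining. The libraries did not fall by group alone. Replicates 1 and 2 of TM4 shNC stood apart from the other 4 TM4 libraries, and replicate 3 of TM4 shNC lay close to TM4 shM5. Whether the label of TM4 shNC replicate 3 is right cannot be told from the files, and every TM4 shNC and shM5 value is given by the labels under this doubt. In C18-4, replicate 3 of shNC and of shM5 stood apart from the other 4 libraries. Genes of the response to the stress factor ATF4 (6 listed, Atf4 itself among them) moved with this split. Their summed level was 1414 and 1401 RPKM in TM4 shNC replicates 1 and 2 against 503 to 560 RPKM in the other TM4 libraries. In replicate 3 of C18-4 shNC and shM5 it was 1105 and 1071 RPKM against 666 to 688 RPKM in the other C18-4 libraries. The identity markers fitted the labels only in part. Of 13 spermatogonial markers in the table, 10 averaged under 0.5 RPKM in C18-4 shNC, Ret and Zbtb16 among them, whereas Uchl1 had 76.8 to 140 RPKM in C18-4 and 0 in TM4. Of 14 Sertoli markers, 9 averaged under 0.5 RPKM in TM4, including Amh, Cldn11 and Wt1, and Wt1 had 53.9 to 72.3 RPKM in C18-4. Of 3 leukocyte markers, Ptprc stayed at or below 0.04 RPKM and Adgre1 at 0. The other, Cd68, had 1.83 to 4.24 RPKM in C18-4 and 1.06 to 1.56 RPKM in TM4. Acta2, a smooth muscle and peritubular gene, had 23.7, 19.8 and 15.9 RPKM in C18-4 shNC and 56.7, 61.8 and 34.6 RPKM in C18-4 shM5. In TM4, Acta2 had 63.3 to 194 RPKM.

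All 10 genes were expressed in both lines, from 0.52 RPKM for Trp53inp1 in TM4 to 173 RPKM for Trp53 in C18-4. In C18-4, Trp53 was the highest in every library, at 132 to 173 RPKM (median 169). Below it stood Cdkn2a at 70.7 to 81.6 RPKM (median 72.5) and Ccng1, a cyclin G that binds the phosphatase PP2A, at 45.7 to 75.3 RPKM (median 66.9), and the ranges of these genes overlapped. Mdm2 (median 39.2 RPKM), Cdkn2c (43.0), Cdkn1a (35.4) and Cdkn1b (28.0) followed, and each overlapped with its neighbour. Cdkn2b was lower, with a median of 14.0 RPKM, and Bbc3 and Trp53inp1 overlapped at the lower end with medians of 3.59 and 3.30 RPKM. In TM4, Cdkn2a took the first place at 111 to 148 RPKM (median 139) and exceeded Trp53, at 93.1 to 122 RPKM (median 116), in 6 of 6 libraries although the ranges overlapped between libraries. Cdkn1a came next at 45.6 to 53.01 RPKM (median 48.8), apart from all others. Cdkn1b (median 31.3 RPKM), Cdkn2c (33.2) and Mdm2 (23.8) overlapped with their neighbours in the order, and Cdkn2b (16.7), Ccng1 (11.995), Bbc3 (1.77) and Trp53inp1 (0.655) were each below the whole range of the gene before.

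**Figure D1:**
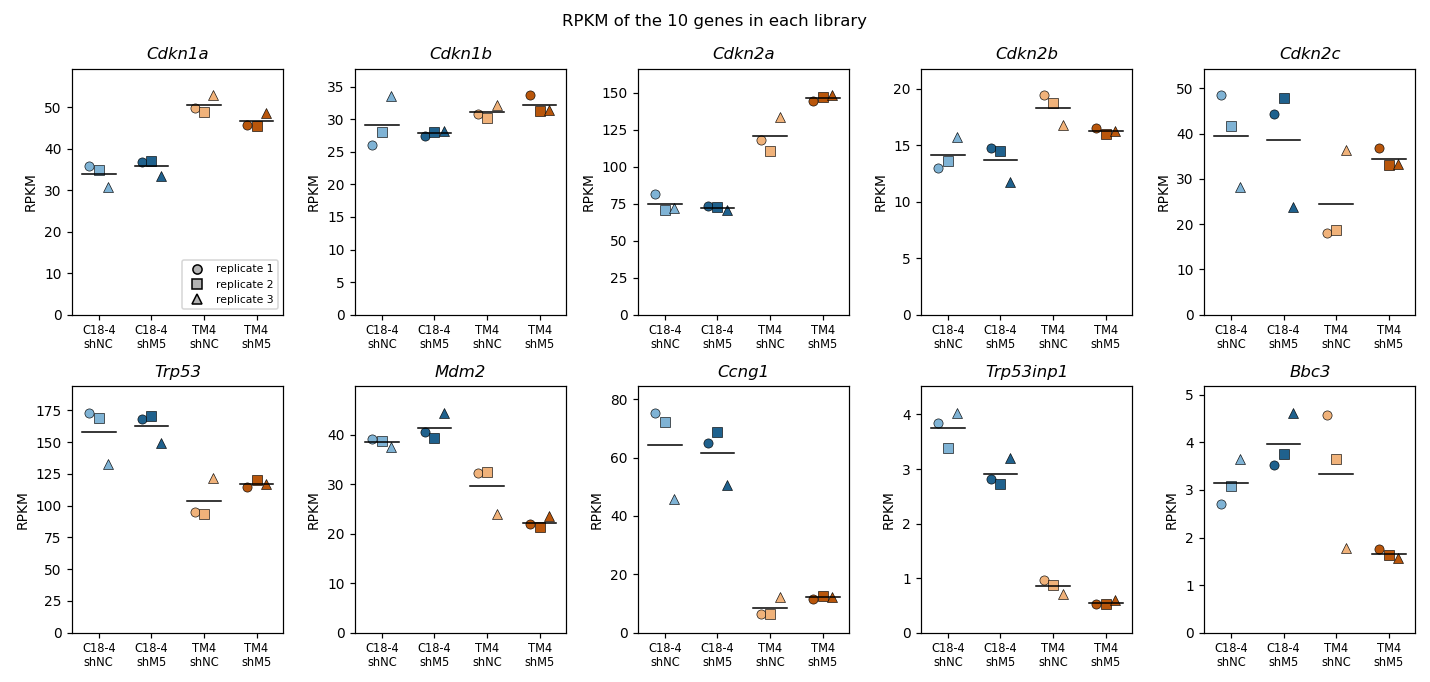
RPKM (vertical axes, each from 0) of the 10 genes in each library, grouped by line and hairpin, with symbols for the replicate number and a bar at the mean of the 3 libraries of a group. The lines differ most for Ccng1 and Trp53inp1, and TM4 shNC replicate 3 sits with TM4 shM5 for Cdkn2c, Trp53, Mdm2, Ccng1 and Bbc3.

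The first comparison asked whether the M5 hairpins changed these genes in C18-4. None of the 10 genes passed the test (limma, adjusted p below 0.05), beside 0.586% of the 11611 genes tested, and 1 of them had an unadjusted p under 0.05, beside 12.3% of all genes. The median log2 difference of the 10 genes was -0.05, and that of all genes tested 0.00 when rounded.

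Among the inhibitors, Cdkn1a, which encodes p21, had 35.9, 34.9 and 30.8 RPKM in shNC replicates 1 to 3 and 37.0, 37.2 and 33.5 RPKM in shM5. Cdkn1b, which encodes p27, had 26.0, 28.0 and 33.5 RPKM in shNC against 27.5, 28.0 and 28.2 RPKM in shM5. The groups overlapped for both genes, and the 95% intervals of the log2 differences ran from -0.12 to 0.29 for Cdkn1a and from -0.30 to 0.19 for Cdkn1b. Cdkn2a had 81.6, 71.0 and 72.2 RPKM in shNC against 73.5, 72.8 and 70.7 RPKM in shM5. Cdkn2b had 13.02, 13.6 and 15.7 RPKM in shNC against 14.8, 14.5 and 11.7 RPKM in shM5. These INK4 genes, neighbours on chromosome 4, kept their groups intermixed, with intervals from -0.23 to 0.13 for Cdkn2a and from -0.34 to 0.24 for Cdkn2b. Cdkn2c, which encodes p18, had 48.5, 41.7 and 28.2 RPKM in shNC and 44.3, 47.9 and 23.7 RPKM in shM5. Its low values were those of replicate 3 in both groups, and its interval was the widest of the 10, from -0.77 to 0.65.

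Trp53 had 173, 169 and 132 RPKM in C18-4 shNC and 168, 170 and 150 RPKM in shM5, again lowest in replicate 3 of each group. Mdm2 had 39.1, 38.7 and 37.6 RPKM in shNC against 40.5, 39.3 and 44.4 RPKM in shM5. All shM5 libraries lay above all shNC libraries for Mdm2, by a log2 difference of 0.10 ± 0.07 (SE, n = 3 and 3; limma adjusted p = 0.658). Among the targets, Ccng1 had 75.3, 72.3 and 45.7 RPKM in shNC and 65.0, 68.9 and 50.5 RPKM in shM5, with overlapping groups. Trp53inp1, a p53-induced protein with a part in autophagy and cell death, had 3.84, 3.39 and 4.03 RPKM in shNC against 2.81, 2.72 and 3.21 RPKM in shM5. Every shM5 library was below every shNC library, a log2 difference of -0.35 ± 0.13 that did not pass after adjustment (limma adjusted p = 0.345). Bbc3, which encodes the cell death protein PUMA, had 2.71, 3.08 and 3.65 RPKM in shNC and 3.53, 3.76 and 4.62 RPKM in shM5. The groups of Bbc3 overlapped, yet within each replicate number shM5 was higher by 0.28 to 0.37 on the log2 scale. Only Mdm2 and Trp53inp1 had groups that did not overlap, 2 of 10 genes beside 18.9% of all genes tested.

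In C18-4, samples of the same number deviated together, with correlations of 0.439, 0.409 and 0.631. Replicates 1 and 2 also did so across numbers (0.341 and 0.345), so the pairing was clear only for replicate 3. The fit was repeated with the replicate number as a block, a choice read from the data. None of the 10 genes passed in this replicate block fit either, while the share of all genes called was 11.9%. Trp53inp1 had an adjusted p = 0.0577 and Bbc3 an adjusted p = 0.0653 in the blocked limma fit, at log2 differences of -0.35 ± 0.10 and 0.33 ± 0.10 (SE). Replicate 3 of both groups lay on the same side of the other 4 C18-4 libraries for 5 of the 10 genes, below them for Cdkn1a, Cdkn2c, Trp53 and Ccng1 and above them for Cdkn1b, beside 50.6% of all genes tested. The part of the ATF4 gene levels in this was not tested.

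In TM4 the same question gave differences that rested, for most of these genes, mainly on 2 control libraries. Cdkn1a was an exception, with its highest control value in shNC replicate 3 (53.01 RPKM). None of the 10 genes passed the test, beside 0.00% of 11016 genes, although 4 of them had an unadjusted p under 0.05 (Cdkn2a, Mdm2, Trp53inp1 and Bbc3), beside 26.0% of all genes. The smallest adjusted p of any gene was 0.192 in limma. No count-based test was run, since the table holds no reads.

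Cdkn2a had 118, 111 and 134 RPKM in TM4 shNC and 145, 147 and 148 RPKM in TM4 shM5. It was the only gene of the 10 with all shM5 libraries above all shNC libraries, at a log2 difference of 0.28 ± 0.09 (SE, n = 3 and 3; limma adjusted p = 0.192). Cdkn2b, beside it on chromosome 4, went the other way with 19.4, 18.7 and 16.8 RPKM in shNC and 16.5, 16.0 and 16.2 RPKM in shM5, groups that did not overlap. Cdkn2c had 18.1 and 18.7 RPKM in shNC replicates 1 and 2, 36.3 RPKM in shNC replicate 3, and 36.7, 33.1 and 33.3 RPKM in shM5. The control group of Cdkn2c therefore spanned both levels, with a coefficient of variation of 42.4% against 5.93% in shM5. Cdkn1a had 49.9, 49.0 and 53.01 RPKM in shNC and 45.8, 45.6 and 48.6 RPKM in shM5, every shM5 library below every shNC library by a small amount, at a log2 difference of -0.12 with an interval from -0.29 to 0.05. Cdkn1b, with 30.9, 30.1 and 32.2 RPKM in shNC and 33.7, 31.3 and 31.4 RPKM in shM5, had overlapping groups and an interval from -0.13 to 0.23.

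Trp53 had 95.3, 93.1 and 122 RPKM in TM4 shNC and 115, 120 and 117 RPKM in shM5, so that shNC replicate 3 was the highest of the 6 libraries. Its inhibitor Mdm2 had 32.2, 32.4 and 24.1 RPKM in shNC and 21.9, 21.3 and 23.6 RPKM in shM5. The groups of Mdm2 did not overlap, but shNC replicate 3 was nearer to shM5 than to the other control libraries. Ccng1 had 6.51, 6.53 and 12.3 RPKM in shNC and 11.7, 12.4 and 12.3 RPKM in shM5. Trp53inp1 had 0.97, 0.87 and 0.71 RPKM in shNC and 0.52, 0.52 and 0.60 RPKM in shM5. Bbc3 had 4.58, 3.66 and 1.78 RPKM in shNC and 1.76, 1.63 and 1.58 RPKM in shM5. Among the targets, Trp53inp1 and Bbc3 were thus lower in every shM5 library than in every control library, whereas the groups of Ccng1 overlapped. In all, 6 of 10 genes had groups that did not overlap, 1 higher and 5 lower in shM5, beside 26.8% of all genes tested.

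Without TM4 shNC replicate 3, 8 of the 10 genes passed the test (limma). This library was left out because its values lay close to shM5, a choice read from the data that widens the gap between the groups. The p-values of every fit without it are therefore descriptions and no independent support. The 4 that were higher in shM5 (beside 36.5% of all genes) were Cdkn2c by a log2 difference of 0.90 ± 0.06, Ccng1 by 0.89 ± 0.06, Cdkn2a by 0.36 ± 0.04 and Trp53 by 0.31 ± 0.04 (SE, 2 and 3 libraries; adjusted p between 1.08e-05 and 0.000241). The 4 that were lower (beside 30.9% of all genes) were Bbc3 by a log2 difference of -1.26 ± 0.13, Trp53inp1 by -0.66 ± 0.21, Mdm2 by -0.54 ± 0.06 and Cdkn2b by -0.23 ± 0.05 (adjusted p between 9.90e-05 and 0.0241). Cdkn1a and Cdkn1b did not pass, at log2 differences of -0.08 ± 0.05 and 0.07 ± 0.05. Since about as large a share of the whole table passed, these counts do not set the 10 genes apart from other genes. When instead another TM4 library was left out, none of the 10 genes passed.

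TM4 shNC replicates 1 and 2 lay outside the range of the other 4 TM4 libraries for 9 of the 10 genes, beside 76.2% of all genes tested. They were above it for Cdkn2b, Mdm2, Trp53inp1 and Bbc3 and below it for Cdkn1b, Cdkn2a, Cdkn2c, Trp53 and Ccng1, and Cdkn1a was the exception. For Bbc3 the mean of these libraries was 2.44-fold that of the other 4, and for Mdm2 1.42-fold. For Cdkn2c and Ccng1 the other 4 libraries had 1.89-fold and 1.87-fold the mean of these. With them moved the ATF4 genes given above and 12 proliferation genes, whose summed level was 778 and 784 RPKM in shNC replicates 1 and 2 against 1123 to 1214 RPKM in the other 4. The part of the stress genes and of proliferation in the differences was not tested, and the hairpin cannot be told apart from what set these 2 control libraries apart.

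**Figure D2:**
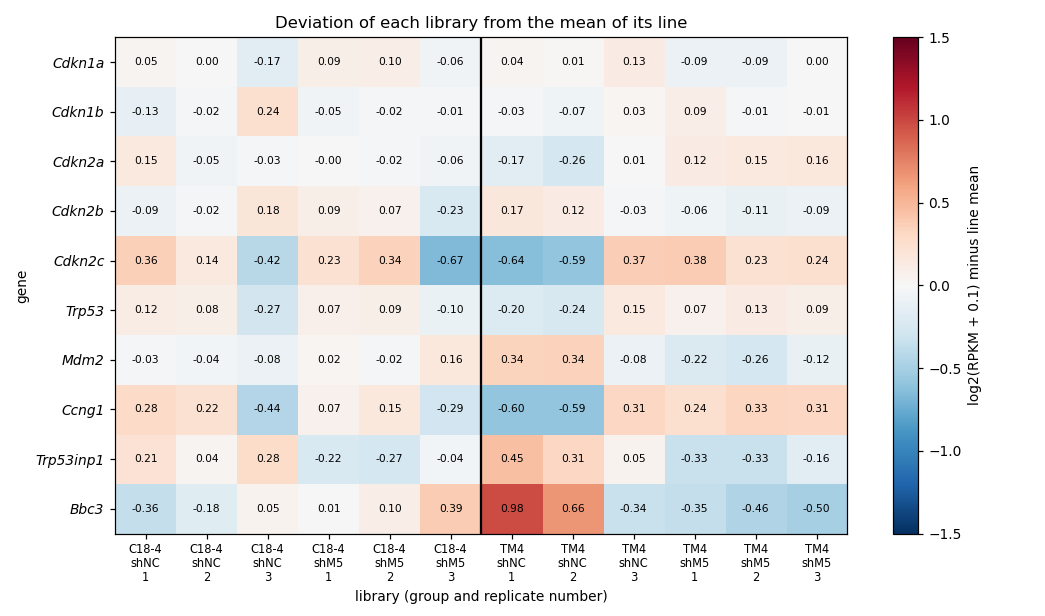
Deviation of log2(RPKM + 0.1) in each library (columns, group and replicate number) from the mean of the 6 libraries of its line, for the 10 genes (rows), with red above and blue below the mean and a line between C18-4 and TM4. Bbc3 deviates by 0.98 and 0.66 in TM4 shNC replicates 1 and 2 and by -0.34 in replicate 3, and Cdkn2c by -0.42 and -0.67 in replicate 3 of C18-4 shNC and shM5.

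**Figure D3:**
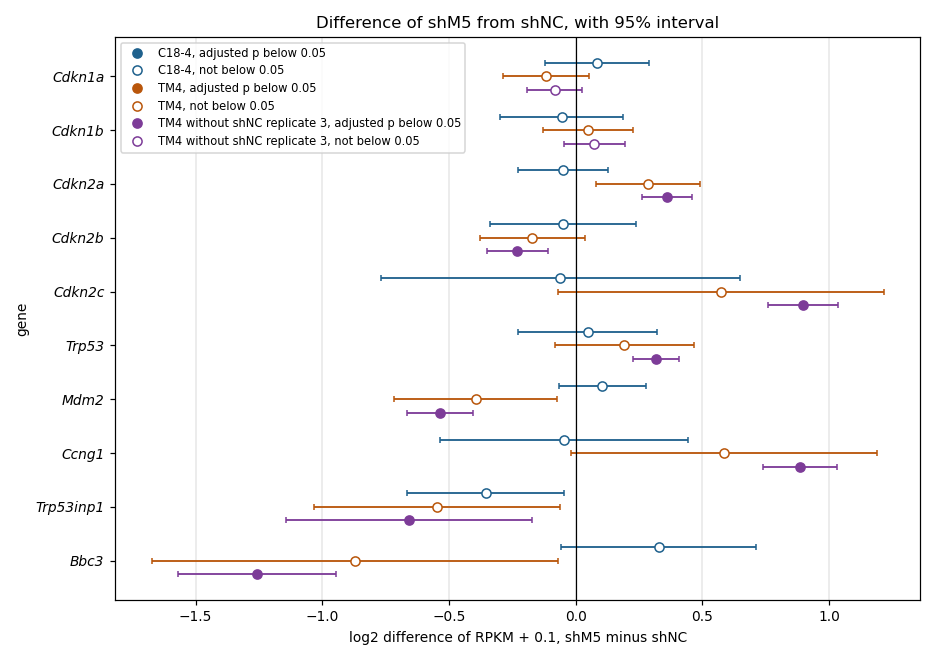
Log2 difference of shM5 from shNC (horizontal axis) with its 95% interval from limma, for each gene in C18-4, in TM4 and in TM4 without shNC replicate 3. Filled points have an adjusted p below 0.05, and all 8 of these belong to the fit without TM4 shNC replicate 3.

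The effect of shM5 was then compared between the lines in 1 fit of all 12 libraries. None of the 10 genes passed the test of this difference (limma), beside 0.102% of 11773 genes, and 3 of them had an unadjusted p under 0.05, beside 20.9% of all genes. The largest differences among these were those of Bbc3, where the log2 effect in TM4 was lower than that in C18-4 by -1.20 ± 0.39 (SE; adjusted p = 0.190), and of Mdm2, by -0.50 ± 0.16 (adjusted p = 0.182). Both genes were higher with shM5 in C18-4 within each replicate number and lower in TM4. Cdkn2a differed by 0.33 ± 0.11 (adjusted p = 0.193). Without TM4 shNC replicate 3, 4 of the 10 genes passed, beside 38.0% of all genes, namely Bbc3, Ccng1, Mdm2 and Cdkn2a.

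The inhibitors were also read together, as the summed RPKM of 7 genes, with Cdkn2d (p19, an INK4 gene) and Cdkn1c (p57, a CIP/KIP gene) added to the 5 members. The sum was 218 ± 12.3 RPKM in C18-4 shNC and 209 ± 18.8 in C18-4 shM5, and 258 ± 30.8 in TM4 shNC and 300.3 ± 1.94 in TM4 shM5 (SD, n = 3). Cdkn2a made up 34.4% ± 1.07 of this sum in C18-4 shNC and 46.9% ± 1.18 in TM4 shNC. Its share was 33.0 to 37.8% over the C18-4 libraries and 45.6 to 49.6% over the TM4 libraries, without overlap. Cdkn2c held 12.7 to 21.7% in C18-4 and 7.36 to 12.4% in TM4, with replicate 3 of C18-4 shNC and shM5 at 13.6 and 12.7%. Cdkn1c was at 0 RPKM in all 6 TM4 libraries, and had 4.15, 5.07 and 8.35 RPKM in C18-4 shNC against 2.31, 2.60 and 2.68 RPKM in C18-4 shM5. The C18-4 groups of Cdkn1c did not overlap, with a log2 difference of -1.12. It passed in the limma fit with the replicate block (SE 0.15, adjusted p = 0.00568) and not without it (SE 0.25, adjusted p = 0.128). INK4 genes had 65.0 to 71.4% of the sum over the C18-4 libraries. In TM4 they had 67.1 and 66.4% in shNC replicates 1 and 2, 70.9% in shNC replicate 3 and 73.3 to 74.3% in shM5, given here as values without a test.

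The ratio of Mdm2 to Trp53 RNA was also taken in each library. It was 0.226, 0.228 and 0.284 in C18-4 shNC and 0.241, 0.230 and 0.297 in C18-4 shM5, highest in replicate 3 of each group. In TM4 it was 0.338 and 0.348 in shNC replicates 1 and 2, and 0.197 in shNC replicate 3 against 0.191, 0.178 and 0.202 in shM5. The ratio in shNC replicate 3 thus lay inside the range of shM5. For Cdkn1a to Trp53 the ratio was 0.206 to 0.233 in C18-4 and 0.381 to 0.526 in TM4, and for Ccng1 to Trp53 it was 0.338 to 0.435 in C18-4 and 0.0683 to 0.105 in TM4. These p53 targets therefore stood in opposite order between the lines relative to Trp53 RNA, in all 12 libraries.

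**Figure D4:**
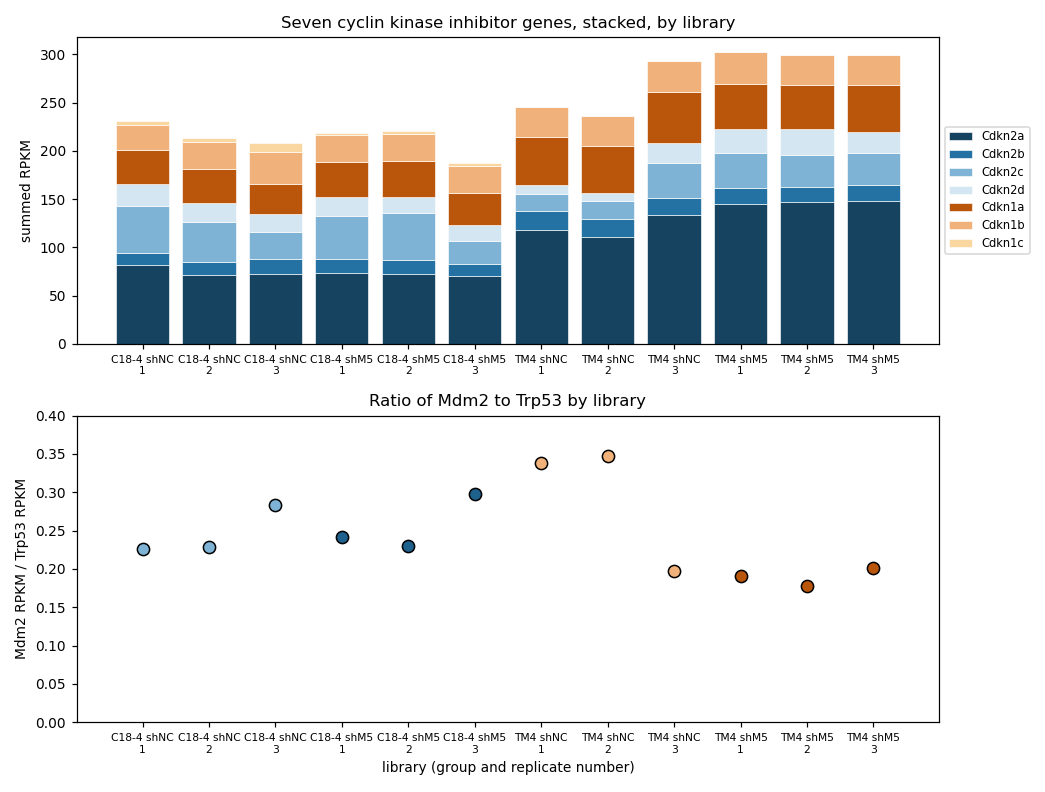
Above, RPKM of 7 cyclin kinase inhibitor genes stacked for each library (vertical axis from 0, INK4 genes in blue, CIP/KIP genes in orange); below, the ratio of Mdm2 RPKM to Trp53 RPKM in the same libraries. Cdkn2a is the largest part of every stack, and the ratio is 0.338 and 0.348 in TM4 shNC replicates 1 and 2 against 0.178 to 0.202 in the other TM4 libraries.

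The lines were compared within each hairpin. Among control libraries, 3 genes were higher in TM4 than in C18-4 (beside 25.6% of all genes) and 4 were lower (beside 40.0%). Under a stricter rule, which asks for a log2 difference of 1 or more and an adjusted p no higher than 0.001, 2 of the 10 genes were called (Ccng1 and Trp53inp1), beside 26.1% of all genes. Among shM5 libraries, 2 genes were higher in TM4 (beside 24.2%) and 5 lower (beside 37.0%), and 3 passed the stricter rule (Ccng1, Trp53inp1 and Cdkn2a), beside 24.0% of all genes. These counts are near the shares of all genes and do not set the 10 genes apart. The median gene was lower in TM4 by a log2 difference of -0.15 in shNC and -0.12 in shM5, and the members' differences are to be read against these medians. After quantile normalization the medians were 0.02 in both, and the split of called genes changed from 3014 higher and 4711 lower to 3980 and 3844 in shNC, and from 2845 and 4353 to 3729 and 3618 in shM5. The lines were also grown in different media, so line and medium cannot be told apart.

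The largest differences were those of p53 targets. Ccng1 averaged 64.4 ± 16.3 RPKM in C18-4 shNC and 8.45 ± 3.34 in TM4 shNC (SD, n = 3). It was 7.72-fold lower in TM4 in shNC, a log2 difference of -2.95 ± 0.25 (SE; limma adjusted p = 8.95e-07), and 4.99-fold lower in shM5, a log2 difference of -2.32 ± 0.25 (adjusted p = 7.53e-06). Trp53inp1 averaged 3.75 ± 0.329 RPKM in C18-4 shNC and 0.850 ± 0.131 in TM4 shNC. It was 4.07-fold lower in TM4 in shNC and 4.66-fold lower in shM5, at log2 differences of -2.03 ± 0.14 and -2.22 ± 0.14. Bbc3 did not differ detectably between the control groups, at 3.15 ± 0.474 RPKM in C18-4 and 3.34 ± 1.43 in TM4, and the interval of the log2 difference ran from -0.61 to 0.60. In shM5 it was 2.30-fold lower in TM4, at 1.66 ± 0.0929 against 3.97 ± 0.575 RPKM (log2 difference -1.20 ± 0.28, adjusted p = 0.00257).

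Trp53 and Mdm2 were both lower in TM4. Trp53 averaged 158 ± 22.5 RPKM in C18-4 shNC and 103 ± 16.0 in TM4 shNC, and 163 ± 11.4 and 117 ± 2.51 in shM5, at log2 differences of -0.61 ± 0.12 and -0.47 ± 0.12 (SE; adjusted p = 0.000923 and 0.00560). Mdm2 averaged 38.4 ± 0.763 and 29.6 ± 4.76 RPKM in shNC and 41.4 ± 2.69 and 22.3 ± 1.16 in shM5, at log2 differences of -0.39 ± 0.11 and -0.89 ± 0.11 (adjusted p = 0.00845 and 2.54e-05). Of the inhibitors, Cdkn2a was higher in TM4 by 1.61-fold in shNC (75.0 ± 5.80 against 121 ± 11.8 RPKM, adjusted p = 1.53e-05) and by 2.03-fold in shM5 (72.3 ± 1.43 against 147 ± 1.99 RPKM, adjusted p = 4.58e-07). Cdkn1a was higher in TM4 by 1.495-fold in shNC (33.9 ± 2.69 against 50.6 ± 2.10 RPKM, adjusted p = 5.42e-05) and by 1.30-fold in shM5 (35.9 ± 2.10 against 46.7 ± 1.67 RPKM, adjusted p = 0.00139). No C18-4 library reached the level of any TM4 library for these inhibitors. Cdkn2b was higher in TM4 by a log2 difference of 0.38 ± 0.11 in shNC (adjusted p = 0.00999), and by 0.26 ± 0.11 in shM5, which did not pass (adjusted p = 0.0626). Cdkn1b and Cdkn2c did not pass in either comparison with all libraries, and the interval for Cdkn2c was wide, from -1.42 to -0.05 in shNC and from -0.79 to 0.58 in shM5. Without TM4 shNC replicate 3, Cdkn2c passed as lower in TM4 controls, by -1.06 ± 0.28 (adjusted p = 0.00560), and without C18-4 shNC replicate 3 by -0.96 (adjusted p = 0.0281). Cdkn1b then passed too, as higher in TM4 controls by 0.20 (limma adjusted p = 0.0285). Without C18-4 shNC replicate 3, 9 of the 10 genes were thus called, beside 7581 of all 11743 genes tested.

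**Figure D5:**
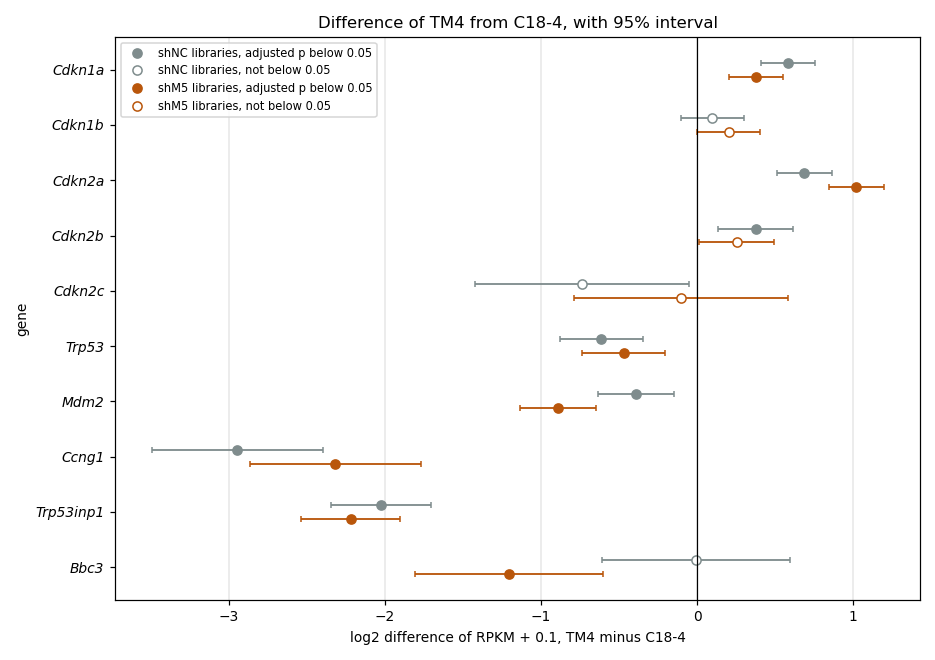
Log2 difference of TM4 from C18-4 (horizontal axis, positive when higher in TM4) with its 95% interval from limma, for each gene in the shNC libraries and in the shM5 libraries. Filled points have an adjusted p below 0.05, and Ccng1 and Trp53inp1 lie below -2 in both.

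Other genes of the pathway, from lists of p53 regulators and targets, cell cycle genes and regulators of the Cdkn2a locus, were read in the same fits. These lists were also chosen with earlier results of these data known. In C18-4, none of 13 tested p53 regulators, 15 targets of arrest and repair, 13 targets of cell death or 11 regulators of Cdkn2a passed, and 1 of 19 cyclins, kinases and pocket proteins did. This was Skp2, the ubiquitin ligase subunit that marks p27 for destruction, with 18.8, 18.3 and 16.0 RPKM in shNC and 34.8, 36.3 and 29.4 RPKM in shM5. It was higher in shM5 by a log2 difference of 0.92 ± 0.11 (SE; limma adjusted p = 0.0367), while Cdkn1b RNA overlapped between the groups as given above. Skp2 also passed with the replicate block, by 0.92 ± 0.06 (adjusted p = 0.000358). No gene of the whole table, Skp2 included, passed in the fit without the block when replicate 1 or 2 of either group was left out. With the replicate block, 4 of the 13 death targets were lower in C18-4 shM5, namely Pmaip1 (log2 difference -0.75 ± 0.14), Perp (-0.53 ± 0.10), Fas (-0.39 ± 0.09) and Phlda3 (-0.32 ± 0.06), with adjusted p between 0.0154 and 0.0298, beside 6.73% of all genes lower in that fit. In the same fit 3 of the 15 targets of arrest and repair were higher, beside 5.21% of all genes, Btg2 by 0.58 ± 0.13, Trp53inp2 by 0.45 ± 0.08 and Tigar by 0.31 ± 0.08. Of 13 p53 regulators 1 was lower, Chek2 by a log2 difference of -0.39 ± 0.08. Of 11 regulators of Cdkn2a 2 were lower, Ets2 by -0.53 ± 0.06 and Id1 by -0.27 ± 0.05. Of 19 cyclins, kinases and pocket proteins, Cdk4 was lower by -0.17 ± 0.04 and Skp2 higher as given above. Of 6 ATF4 genes 1 was higher, Atf3 by 0.48 ± 0.07 (limma adjusted p = 0.00557), and none was lower. These calls stand beside the same shares of all genes in that fit. Cell identity markers were also called in it, Acta2 (1.34 ± 0.09), Rhox5 (1.39 ± 0.20), Uchl1 (0.38 ± 0.09) and Wt1 (0.23 ± 0.05) as higher and Gata4 (-0.51 ± 0.10) as lower in shM5, and their part in these differences was not tested.

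In TM4, none of the genes of these lists passed with all libraries. Without shNC replicate 3, 4 of 15 targets of arrest and repair were higher and 7 lower in shM5, and 6 of 12 targets of cell death were higher and 6 lower, beside 36.5% of all genes higher and 30.9% lower. Gadd45a, a growth arrest gene also induced by stress signals, had 329 and 312 RPKM in shNC replicates 1 and 2, 35.5 RPKM in shNC replicate 3 and 24.4 to 27.6 RPKM in shM5. Eda2r, a p53-induced receptor, followed it with 6.26 and 6.09 RPKM against 0.59 RPKM in shNC replicate 3 and 0.26 to 0.57 RPKM in shM5. Of 19 cyclins, kinases and pocket proteins, 13 were higher and 4 lower in that fit, and of 12 proliferation genes 11 were higher and none lower, beside the same shares of all genes. Cdkn2d, the remaining INK4 gene, had 9.55 and 8.36 RPKM in shNC replicates 1 and 2, 21.2 RPKM in shNC replicate 3 and 21.4 to 26.1 RPKM in shM5, so that shNC replicate 3 lay just below the shM5 range.

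In control libraries, beside 25.6% of all genes higher and 40.0% lower in TM4, 6 of 15 targets of arrest and repair were higher and 5 lower in TM4, and 5 of 14 targets of cell death were higher and 7 lower. Perp, a membrane protein of p53-dependent death, had 3.53 to 7.01 RPKM in C18-4 and was listed at 0 in all TM4 libraries, and Pmaip1, which encodes NOXA, had 2.46 to 7.46 RPKM in C18-4 and at most 0.05 in TM4. Dram1, a p53-induced autophagy gene, had 3.25 to 6.13 RPKM in C18-4 and 17.0 to 27.3 RPKM in TM4. Of 12 regulators of Cdkn2a, 5 were higher and 6 lower in TM4 controls, beside the same shares of all genes. Tbx3 and Tbx2, repressors known to act on the Cdkn2a locus, were exchanged between the lines, with Tbx3 at no more than 0.01 RPKM in C18-4 and 12.3 to 34.8 RPKM in TM4, and Tbx2 at 0.76 to 1.31 RPKM in C18-4 and at most 0.02 RPKM in TM4. Of 19 cyclins, kinases and pocket proteins, 5 were higher and 7 lower in TM4 controls, with Cdk1, Cdk2 and Ccne2 among the lower, and of 12 proliferation genes none was higher and 9 were lower. Ccnd1 and Ccnd2, the cyclins whose kinases the INK4 proteins block, were higher in TM4. Ccnd1 had 68.8 to 138 RPKM in TM4 against 22.4 to 34.5 RPKM in C18-4, and Ccnd2 65.9 to 102 against 14.1 to 18.2 RPKM. Among shM5 libraries, beside 24.2% of all genes higher and 37.0% lower in TM4, 6 of the 12 proliferation genes were lower and none higher. Of the targets of arrest and repair 2 were higher and 6 lower there, and of those of cell death 4 and 6. Cyclins, kinases and pocket proteins had 6 higher and 6 lower, and regulators of Cdkn2a 3 and 6. The control counts include TM4 shNC replicates 1 and 2, which stood apart.

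The genes most like Cdkn1a and Cdkn2a were sought among 7791 others with at least 5 RPKM on average in both lines, by Pearson's r of log2(RPKM + 0.1) over the 12 libraries after the mean of each line was taken off. For Cdkn1a they were Txnrd1 (r = 0.93), Dph3 (r = 0.91) and Plaur (r = 0.90). For Cdkn2a they were Cars2 (r = 0.97), Wtip (r = 0.95) and Atp5d (r = 0.95). The points share their libraries and the split of TM4 shNC, and the genes were picked as the highest of many, so these values are descriptions.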

How the data were processed

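Per the study's methods, poly(A) RNA was sequenced on a HiSeq instrument and reads were aligned with SOAPaligner. The authors deposited RPKM per gene and library, without read counts. The genome build, the annotation and any use of strand in counting are not given in the sources used here. Here, log2(RPKM + 0.1) was tested with limma (3.58.1, R 4.3.3, trended variance) after genes averaging under 0.5 RPKM were dropped, with Benjamini-Hochberg adjustment and a threshold of 0.05. Log2 differences on this scale understate changes of low genes. The study's own test needs reads and was not used here. In 29 low genes the value of 1 read was 0.975 to 1.02 relative to its mean over libraries. Only genes whose values lay near whole multiples of a common value were kept. That choice favours ratios near 1, so equal depth is not shown, and counts were not recovered.

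Groups came from the labels. Same-numbered libraries deviated together in C18-4 (correlations 0.439, 0.409 and 0.631), the pairing being read from the data, since the labels name no shared batch. Replicates 1 and 2 also correlated across numbers (0.341 and 0.345), so the pairing by number was clear only for replicate 3. The 10 genes and the lists were chosen with earlier results of these data known. The text names all 10 genes, Chrm5, the defining markers of the cell types, and from each list at most 5 called genes with the largest difference. In the GENCODE annotation (GRCm38), 8.66% of the 35-base words of Trp53 transcripts recur in other genes, mostly in the pseudogene Trp53-ps, and 9.42% of those of Cdkn1a, so these values are uncertain to that extent. Alternatives were a pseudocount of 1, no filter or one at 2 RPKM, quantile normalization, a stricter call, a replicate block, no variance trend, only the 6 libraries compared, and leaving out each library. The limma script was tested on simulated data with independent noise in each library. The simulated data held neither the split of TM4 shNC nor that of C18-4 replicate 3, so the effect of these splits was not tested.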

Additional observations from a re-analysis of the deposited data

Results flagged for a closer look

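Mdm2 was singled out because every C18-4 shM5 library lay above every C18-4 shNC library and every TM4 shM5 library below every TM4 shNC library. The margins were small. In C18-4 the lowest shM5 library had 39.26 RPKM against 39.06 RPKM in the highest shNC library. In TM4 the highest shM5 library had 23.55 RPKM against 24.05 RPKM in the lowest shNC library. The effect of shM5 in TM4 minus that in C18-4 was -0.50 ± 0.16 on the log2 scale (SE), and this difference did not pass the test (limma adjusted p = 0.182). Mdm2 was chosen for these opposite directions, so the test is no independent support. Without TM4 shNC replicate 3 the difference was -0.64 ± 0.09, in a fit where 38.0% of all genes passed. In TM4 shNC replicates 1 and 2, Mdm2 was high together with the ATF4 stress genes, whose part in it was not tested.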

How the results depend on the processing

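The number of the 10 genes called stayed within 1.5 times of the reported number for all comparisons under another pseudocount, other filters, quantile normalization, no variance trend and the replicate block, which changed no call of these genes; in TM4, same-numbered libraries did not pair by the rule used (correlations 0.0729, 0.0489 and 0.127), and with the block 0 genes were called. The stricter call left 2 genes between the lines in shNC and 3 in shM5, by its construction. Leaving out 1 library gave 0 to 8 genes called in TM4 and 0 to 4 for the difference between the lines, the higher number in both without TM4 shNC replicate 3. Between the lines in shNC it gave 7 to 9 genes, with 9 when C18-4 shNC replicate 3 was left out. In that fit 7581 of all 11743 genes tested were called. Of single log2 differences that did not pass the test, 3 turned under another setting: Trp53inp1 for the difference between the lines (0.024 with a pseudocount of 1) and Bbc3 between the lines in shNC (0.013 with a pseudocount of 1 and 0.46 after quantile normalization). Leaving out 1 library turned the following, given by their range: in C18-4 Cdkn1b (-0.13 to 0.048), Cdkn2a (-0.086 to 0.014), Cdkn2b (-0.11 to 0.055), Cdkn2c (-0.28 to 0.26), Trp53 (-0.076 to 0.12) and Ccng1 (-0.28 to 0.090), for the difference between the lines Cdkn1b (-0.00030 to 0.18), and between the lines Bbc3 in shNC (-0.28 to 0.38) and Cdkn2c in shM5 (-0.42 to 0.083). The cause of these turns was not tested. Between the lines in shM5, Cdkn1b and Cdkn2b passed after quantile normalization and with only the 6 libraries compared.

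Over the whole table, 68 genes were called in C18-4, against 4 with no filter, 45 without a variance trend, 1386 with the replicate block and 0 to 237 when 1 library was left out. In TM4 7433 genes were called without shNC replicate 3 and 0 without any other library. For the difference between the lines, 12 genes were called, against 2 with the block, 21 with no filter, 22 without a trend, 27 with a pseudocount of 1, 57 after quantile normalization 4477 without TM4 shNC replicate 3 and 0 to 31 without any 1 other library. Since the table holds no read counts, no counting error can be given.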
